A study of Mus musculus with 661 samples.

Results

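Young osteoprogenitors (OPr) and young Sca-1-positive mesenchymal stromal cells (MSC-S) are sorted stromal fractions of the endosteum, the inner surface of bone. Cells were taken by the sort written in their labels, which gave 44 OPr and 59 MSC-S, together 103 of the 661 single cells of the series. Genes were compared across the whole transcriptome. Both fractions came from young (about 2 months of age) C57BL/6 wild-type mice of both sexes with no treatment, and old mice (about 24 months) gave the other age. Leg, arm and pelvic bones were crushed and digested with collagenase, and single cells were sorted into wells. Both gates took cells negative for Ter119, CD45 and CD31 and positive for CD51. MSC-S were Sca-1 positive, and OPr were negative for Sca-1, PDGFRα and LepR. RNA was read with a modified Smart-Seq2 protocol, which covers full transcripts and carried no molecular identifiers.

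The deposited counts of nuclear genes ran from 79352 to 1261596 per OPr cell, with a median of 686077. In MSC-S they ran from 104972 to 885957, with a median of 602470. The median cell had counts in 6009 genes in OPr and 5982 in MSC-S. Mitochondrial genes took a median of 1.48% of counts in OPr (0.0931% to 12.9%) and 1.44% in MSC-S (0.537% to 5.18%). No pair of cells had identical counts. Cells of each age came from several mice, but the labels do not tell from which mouse a cell came. Each group is therefore 1 sample, cells are not replicates and no difference between the groups was tested. For levels, the nuclear counts of all cells in a group were added up and scaled to a total of 1000000 (CPM). Intervals are at the 95% level and cover counting error alone. A sorted fraction is a set of surface markers, not a lineage traced by a reporter, and its limits as a model are seen in the marker levels that follow.

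Bone-forming cells need the transcription factors RUNX2 and SP7 (osterix), and they use the phosphatase ALPL to free phosphate for mineral. Cartilage cells lay down type II collagen and aggrecan under the factor SOX9. Sca-1, the product of *Ly6a*, marks fibroblast-like progenitors in many mouse tissues.

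The markers of the label differed in the direction of the sort, yet bone markers were carried by only part of the OPr cells. A cell is said to carry a gene at 10 CPM or more. *Sp7* lay at 0, 0.501 and 231 CPM in the lowest, median and highest OPr cell and at 0, 0 and 59.4 CPM in MSC-S. It was carried by 18 of 44 OPr cells (40.9%, exact Clopper-Pearson interval 26.3% to 56.8%) and by 2 of 59 MSC-S cells. Its summed level was 49.1 CPM (46.6 to 51.7) against 1.42 CPM (1.05 to 1.87), 34.6-fold higher. *Alpl* ran from 0 over 10.1 to 7251 CPM in OPr cells, and 22 of 44 carried it, against 5 of 59 MSC-S cells. Its summed level was 876 CPM against 75.5 CPM, 11.6-fold higher (11.1 to 12.1). The median OPr cell therefore stood at the carrying level for *Alpl* and below it for *Sp7*. Either gene was carried by 24 of 44 OPr cells (54.5%, 38.8% to 69.6%) and by 6 of 59 MSC-S cells (10.2%). The type II collagen gene *Col2a1*, in contrast, was carried by 40 of 44 OPr cells (90.9%, 78.3% to 97.5%) and the aggrecan gene *Acan* by 34 of 44 (77.3%). At 100 CPM in place of 10 CPM, *Col2a1* was carried by 30 of 44 (68.2%), *Acan* by 31 (70.5%) and *Sp7* or *Alpl* by 18 (40.9%). The share of 54.5% at 10 CPM counts *Sp7* and *Alpl* alone. Other bone genes, *Runx2* and *Bglap*, are given further on and are not part of it.

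The genes of the sorted surface proteins describe the gate and are no independent finding. *Ly6a* was 18.6 CPM (17.1 to 20.2) in OPr and 912 CPM (902 to 922) in MSC-S, a log2 ratio of -5.54, and was carried by 3 of 44 and 56 of 59 cells. *Pdgfra* was 93.3 CPM against 629 CPM, and 12 of 44 OPr cells carried it although the gate took PDGFRα-negative cells. *Lepr*, another marker gated out of OPr, was 362 CPM in OPr and 111 CPM in MSC-S, and 18 of 44 OPr cells carried it. Its log2 ratio of 1.70 was -0.12 without the OPr cells of the authors' cluster M1, described further on. The RNA of both genes thus goes against the gate in part of the OPr cells. *Itgav*, which encodes CD51, was alike at 105 and 110 CPM. *Pecam1* (CD31) was 6.55 and 1.19 CPM, and *Ptprc* (CD45) was 0.136 and 0.0289 CPM with no cell of either group carrying it. On the GRCm38 assembly (GENCODE M21), *Ly6a* lies on chromosome 15 at 74994877 to 74998031, minus strand. *Sp7* lies on the same chromosome at 102356606 to 102367182, minus strand, and *Alpl* on chromosome 4 at 137741733 to 137796384, minus strand.

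Across the transcriptome, genes were called in both directions in similar number. A gene was measured when it had at least 1000 counts over both groups in at least 10 cells, which 7880 genes did. It was called when its CPM plus 1 differed 4-fold or more, in the same direction in both ranges of library numbers. The range under 19000 held 13 OPr and 20 MSC-S cells, and the range from 19000 held 31 and 39. By this rule 355 genes were higher in OPr (4.51% of those measured) and 347 were lower (4.40%), 8.91% in either direction. In the range from 19000 alone the numbers were less alike, with 410 higher and 607 lower. Over all measured genes the median log2 ratio was -0.03. The library numbers of each group fell into 3 runs, of 13, 19 and 12 OPr cells and of 20, 20 and 19 MSC-S cells, and the labels do not say whether a run is a mouse. The 3 runs of one group all lay above the 3 of the other for 269 of the 355 higher genes (75.8%) and 272 of the 347 lower genes (78.4%), against 8.60% (higher) and 11.5% (lower) of all measured genes, 20.1% in either direction. Calls required the same direction in both ranges of these same cells, so the shares among called genes follow in part from their selection. Without the top cell of each group, which is the cell with the most counts of the gene in question, 317 and 338 of these genes were still 4-fold apart and 0 had turned. In 42 of the 355 and 13 of the 347, 1 cell held over 50% of the counts of the higher group.

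**Figure D1:**
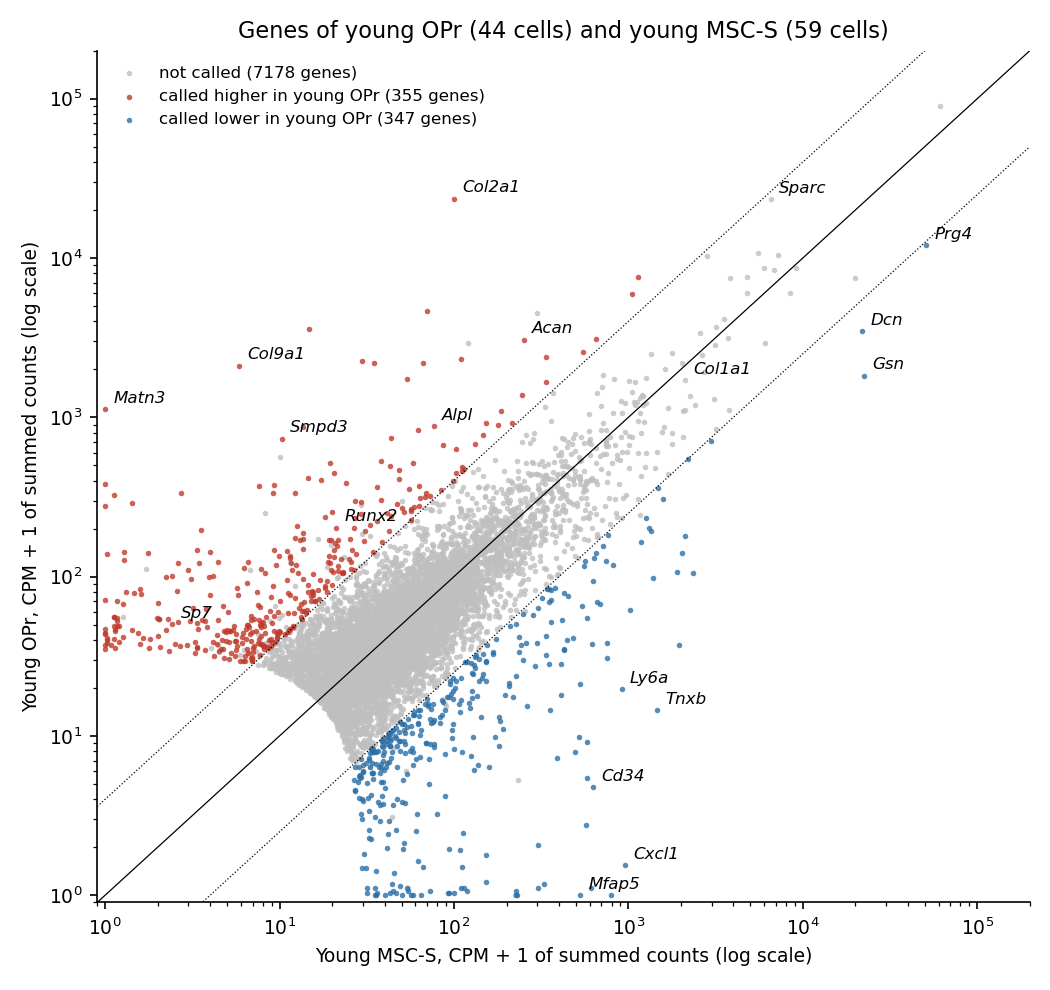
Levels of 7880 measured genes in young MSC-S (horizontal) and young OPr (vertical), as CPM plus 1 of summed counts on log axes, with dotted lines at 4-fold. Red marks the 355 genes called higher in OPr and blue the 347 called lower, and *Col2a1*, *Col9a1* and *Matn3* stand far above the upper line.

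Of the 15 genes with the largest ratio toward OPr that at least 50% of OPr cells carried, 10 belong to the list of 29 cartilage genes. That list was chosen with earlier results of these data known, so the overlap may follow in part from the choice. *Matn3*, which encodes a cartilage matrilin, lay at 0, 26.8 and 5800 CPM in the lowest, median and highest OPr cell and had 0 counts in MSC-S, which allows up to 0.0868 CPM (3 counts over the group). Its summed level of 1130 CPM was at least 13020-fold higher, and 23 of 44 OPr cells carried it. Next came the type IX collagen genes *Col9a1* (log2 ratio 8.49) and *Col9a3*, then *Col2a1* (7.88) and *Col11a2* (6.26). *Lect1*, which encodes chondromodulin, was 4613 CPM against 68.9 CPM. *Ucma*, a cartilage matrix gene of the growth plate, was 864 CPM against 12.7 CPM. *Col9a2* (5.96), the link protein gene *Hapln1* (5.01) and *3110079O15Rik* (4.72) complete the cartilage genes among the 15. The other 5 were *Lmo7* (5.21), the tetraspanin gene *Tspan13* (5.19), *Mia* (5.14), the pyrophosphatase gene *Ppa1* (5.04) and the hyaluronan-degrading *Cemip* (4.54). *Ppa1* was carried by 24 of 44 OPr and 28 of 59 MSC-S cells, so its ratio came from level more than from the share of cells.

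The cartilage list, chosen with earlier results known, was higher in OPr as a group. Of its 29 genes, 28 were in the table and 27 were measured, of which 20 were called higher and 0 lower. Over all measured genes 4.51% were called higher. The median log2 ratio of the list was 3.61 (4.43 and 4.50 within the ranges of library numbers, and 4.61 without the top cells). *Col2a1* ran from 3.84 over 4395 to 109830 CPM in OPr cells and from 0 over 0 to 2669 CPM in MSC-S cells, of which 3 carried it. Its summed level was 23589 CPM (23534 to 23645) against 99.4 CPM (96.1 to 103), 237-fold higher (229 to 245). *Acan* ran from 0 over 2508 to 10558 CPM in OPr cells and was 12.2-fold higher in sum. *Sox9*, the factor that starts the cartilage program, was carried by 35 of 44 OPr and 29 of 59 MSC-S cells, at 895 CPM against 177 CPM. Its partners *Sox5* and *Sox6* were not called, with log2 ratios of 0.60 and 1.24. Also called were *Col11a1* (4.41), the growth factor receptor gene *Fgfr3* (3.07), the sulfate donor synthase *Papss2* (3.16), the cytokine-like *Cytl1* (2.74, and 5.23 without the top cells), *Wif1* (2.57), *Epyc* (2.14, and 1.82 with the mean over cells of CPM) and *Matn1* (5.63). *Col10a1*, the collagen of hypertrophic cartilage, was 324 CPM against 0.116 CPM, carried by 9 of 44 OPr cells and 0 MSC-S cells. In *Col10a1* and *Matn1* the top cell held 49.5% and 44.8% of the OPr counts, and without the top cells their log2 ratios were 7.40 and 4.91. The abundant matrix genes *Chad* (1.88) and *Comp* (0.68) did not reach 4-fold, with 2810 and 4760 CPM in MSC-S. *Trps1* (0.19) was alike. *Frzb* (0.01) was not called, and its ratio was 1.78 and -0.59 within the ranges and 1.56 without the top cells. With cells whose cluster has the identity of their sort it was 2.94. *Ihh*, the hedgehog ligand of prehypertrophic cartilage, was too low to be measured, at 3.75 and 0.145 CPM. On GRCm38, *Col2a1* lies on chromosome 15 at 97975602 to 98004695, minus strand, *Acan* on chromosome 7 at 79053483 to 79115099, plus strand, and *Matn3* on chromosome 12 at 8947929 to 8972028, plus strand.

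Of the osteoblast transcription factors, the pair that defines the lineage was higher in OPr. The list had 12 genes, of which 8 were measured, 2 called higher and 1 lower, with a median log2 ratio of 0.52. The share called was 37.5%, against 8.91% of all measured genes. *Runx2* lay at 0, 61.9 and 1261 CPM in the lowest, median and highest OPr cell and at 0, 0 and 420 CPM in MSC-S. It was carried by 28 of 44 and 10 of 59 cells and was 10.1-fold higher in sum (9.34 to 11.0), with 202 CPM (197 to 207) in OPr. *Sp7* was the other (4.37), with 51.2, 46.2 and 49.6 CPM in the 3 runs of OPr against 0, 0 and 4.60 CPM in those of MSC-S. *Dlx3*, a homeobox gene of bone and skin, was lower (-2.75), and 1 cell held 94.5% of its OPr counts. Without the top cells the ratio of *Dlx3* was -4.99, and with median-of-ratios size factors it was -1.26, under 4-fold. *Dlx5* (1.86) and the stress-response factor *Atf4* (0.23) were not called.

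Genes of bone matrix and mineral were higher in OPr in part, and the type I collagen genes were not called. The list had 27 genes, of which 23 were measured, with a median log2 ratio of 1.81. Called higher were 7 (30.4% of those measured, against 4.51% of all measured genes) and lower 0. The median was 1.02 with the mean over cells of CPM and 1.11 with thinned cells. It was 0.93 without OPr of the authors' clusters M3 and M4. Beside *Alpl* these were *Smpd3*, *Omd*, *Pth1r*, *Bglap*, *Mgp* and *Clec11a*. *Smpd3*, a sphingomyelinase that mineral formation needs, lay at 0, 2.06 and 5359 CPM in OPr cells and was 79.1-fold higher in sum (70.8 to 88.6). Osteocalcin, *Bglap*, was carried by 18 of 44 OPr cells and 7 of 59 MSC-S cells, at 143 CPM against 9.98 CPM, and with median-of-ratios size factors its log2 ratio of 3.71 was 1.75. *Omd*, a proteoglycan of bone, was 383 CPM against 22.9 CPM. *Pth1r*, the parathyroid hormone receptor, ran from 0 over 281 to 4738 CPM in OPr cells and was 13.7-fold higher (13.1 to 14.4). *Mgp*, an inhibitor of calcification, was 5911 CPM against 1054 CPM (2.49), but its direction turned to -0.42 with median-of-ratios size factors, and 1 cell held 39.2% of its MSC-S counts. *Clec11a*, an osteogenic growth factor, was close to the threshold (2.02) and went under it with the mean over cells of CPM (1.90). *Col1a1* lay at 0, 2.77 and 71880 CPM in OPr cells and at 0, 752 and 27426 CPM in MSC-S cells. It was carried by 14 of 44 OPr and 55 of 59 MSC-S cells, with sums of 1704 and 2109 CPM. Its log2 ratio was -0.31 in sum, 0.76 with the mean over cells of CPM and 2.08, past 4-fold, with median-of-ratios size factors. The main collagen gene of bone was thus in fewer OPr than MSC-S cells. *Col1a2* (-0.50, and 0.85 with median-of-ratios size factors), *Spp1* (0.83) and *Sparc* (1.84) were not called. *Ibsp*, bone sialoprotein, had a log2 ratio of 9.84 in the lower range of library numbers and 0.08 in the upper. The collagenase gene *Mmp13* differed in sign between ranges, at 3.06 and -8.05, with 75.5% of the MSC-S counts in 1 cell. *Ifitm5* and *Phospho1*, genes of mineralizing osteoblasts, were at 5.11 and 2.45 CPM in OPr and were not measured.

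The osteocyte list of 8 genes had 3 that were measured, too few for a share to set beside the 8.91% of all measured genes. *Ptprz1* was called higher (2.94, 6 of 44 OPr cells) and the keratocan gene *Kera* lower (-7.73), and the median was -1.69. With no filter on low genes the median was 0.05. *Ptprz1* was -0.03 with cells of the authors' clusters M3 to M5 against M6 to M16 whatever the sort. In *Kera* 1 cell held 95.6% of the MSC-S counts, and without the top cells its log2 ratio was -3.47. *Sost*, the defining osteocyte gene, had 0.0341 CPM in OPr and 0 in MSC-S.

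RUNX factors bind the letters AACCACA, and promoters of both bone lists were searched for them on either strand (AACCACA or TGTGGTT) from 250 bases before to 50 bases after the start of transcription. Promoter sequences came from RefSeq (GRCm38.p6). Of all 32851 promoters in the table, 1731 (5.27%) held the letters. Of 12 osteoblast transcription factors, 6 had a promoter in the table, and 1 of their 6 promoters (16.7%) held them. Of 27 bone matrix genes, 19 had 27 promoters, of which 3 (11.1%) held them, those of *Mmp13*, *Slc20a1* and *Spp1*. With so few promoters the shares are a description of the sequence. The promoter of *Runx2* itself, called higher in OPr, is shown since it held the letters 3 times, in capitals, at chr17:44814578-44814877 on the minus strand. That of *Spp1*, at chr5:104434861-104435160 on the plus strand, is shown beside it as a bone matrix gene that held the letters and was not called.
Runx2: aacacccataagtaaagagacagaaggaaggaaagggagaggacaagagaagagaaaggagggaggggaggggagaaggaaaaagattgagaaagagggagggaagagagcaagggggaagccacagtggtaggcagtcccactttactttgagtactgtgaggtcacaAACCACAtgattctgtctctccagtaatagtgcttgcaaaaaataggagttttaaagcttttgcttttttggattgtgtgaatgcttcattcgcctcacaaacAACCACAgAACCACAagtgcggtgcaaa
Spp1: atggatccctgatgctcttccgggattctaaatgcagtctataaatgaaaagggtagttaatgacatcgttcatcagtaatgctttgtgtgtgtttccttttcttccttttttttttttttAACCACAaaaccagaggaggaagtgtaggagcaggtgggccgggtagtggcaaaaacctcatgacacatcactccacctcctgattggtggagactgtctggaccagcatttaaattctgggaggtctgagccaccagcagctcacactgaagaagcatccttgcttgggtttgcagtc

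Genes of fibroblast-like progenitors were called lower in OPr in all but 2 of those measured. Of 25 genes on that list 24 were measured, of which 0 were called higher and 22 lower. Over all measured genes 4.40% were called lower, and this list too was chosen with earlier results known. The median log2 ratio of the list was -5.49 (-5.75 and -4.79 within the ranges, and -5.77 without the top cells). *Ly6a* and *Pdgfra* are on this list and were part of the sort. *Cd34*, a surface marker of progenitors, lay at 0, 7.91 and 5652 CPM in MSC-S cells, was carried by 29 of 59 of them and by 1 of 44 OPr cells, and was 166-fold lower in OPr (138 to 203). The log2 ratio of *Cd34*, -7.04, was -8.61 without the top cells, and -9.44 and -5.49 within the ranges. *Dcn*, which encodes decorin, ran from 103 over 15019 to 84654 CPM in MSC-S cells and from 0 over 696 to 35876 CPM in OPr cells. Its sums were 21974 and 3476 CPM, and the ranges of the cells overlap widely. *Gsn*, gelsolin, was carried by every MSC-S cell and by 39 of 44 OPr cells, at 22364 against 1824 CPM. *Mfap5*, a microfibril gene, was 527 CPM in MSC-S, had 0 counts in OPr, which allows up to 0.102 CPM, and was at least 5149-fold lower. The C-type lectin gene *Clec3b* also had 0 counts in OPr, against 227 CPM. *Tnxb* (tenascin X) was carried by 54 of 59 MSC-S and 6 of 44 OPr cells and *Has1*, a hyaluronan synthase, by 47 and 10. *Pi16* and *Dpp4*, which mark progenitor fibroblasts, were 110 and 109 CPM in MSC-S, and 13 and 11 of 59 cells carried them, against 1 of 44 OPr cells each. They thus mark a minority of MSC-S. *Igfbp6* (-3.54), *Col14a1* (-5.98), *Ackr3* (-4.30), *Sema3c* (-3.05), *Ebf2* (-5.45), *Fbn1* (-2.42) and *Anxa3* (-2.79) were lower as well. *Lum* (-0.56) and *Pdgfrb* (1.55) were not called, and *Thy1* was too low to be measured (0.443 and 22.1 CPM). On GRCm38, *Cd34* lies on chromosome 1 at 194938819 to 194961279, plus strand, and *Mfap5* on chromosome 6 at 122505845 to 122529290, plus strand.

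The 15 genes with the smallest ratio that at least 50% of MSC-S cells carried were led by *Cxcl1*, a chemokine that draws neutrophils. It lay at 0, 44.9 and 16729 CPM in MSC-S cells, was carried by 32 of 59 of them and by 1 of 44 OPr cells, and its sums were 956 against 0.545 CPM (-9.27). The others beside *Mfap5*, *Tnxb* and *Ly6a* follow. Fibulin-2, *Fbln2* (-9.12), was 611 CPM against 0.102 CPM. *Emilin2* (-6.98), dermatopontin *Dpt* (-6.75) and *Nov* (-5.73), which encodes CCN3, also code for matrix proteins. *Cd55* (-7.21), *Ly6c1* (-5.97) and endosialin *Cd248* (-5.72) code for surface proteins. *Gda* (-6.69) is guanine deaminase, *Fgl2* (-4.64) a fibrinogen-like protein, and *Fam124a* (-6.50) and *Medag* (-6.41) complete the 15. No OPr cell carried *Emilin2*, *Gda* or *Fam124a*, while 32, 36 and 35 of 59 MSC-S cells did.

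Of 27 chemokines and inflammatory cytokines 12 were measured, with 0 called higher and 8 lower (66.7%, against 8.91% of all measured genes). The median log2 ratio of the list was -4.87 (-4.61 and -4.71 within the ranges). The median was -0.58 with no filter on low genes and -1.74 with cells of the authors' clusters M3 to M5 against M6 to M16 whatever the sort. Beside *Cxcl1* these were *Ccl2* (-8.13), *Ccl7* (-7.85), *Il33* (-5.83), *Ccl11* (-5.44), *Cxcl2* (-5.12), *Tnfaip3* (-4.61) and *Il6* (-3.89). *Ccl7*, a monocyte chemokine, was carried by 11 of 59 and *Il6* by 12, and *Ccl2* by 7, of which 1 cell held 97.0% of the counts. Without the top cells the log2 ratio of *Ccl2* was -3.46. *Tnfaip3*, an inhibitor of NF-kappaB that inflammatory signals induce, was carried by 24 of 59 MSC-S and 5 of 44 OPr cells. *Nfkbia*, another such inhibitor, was 326 CPM against 972 CPM and not called (-1.57). Of the 16 complement and acute phase genes 10 were measured and 2 called lower, *Cd55* and *Cfd*, and 0 higher, with a median of -0.73. The median was -2.41 with 6 called lower without the 3 OPr cells of cluster M1 described further on, -0.18 and -2.51 within the ranges, and 0.09 without OPr of M3 and M4. *Cfd* rested on 1 cell that held 99.8% of its MSC-S counts, and without the top cells its log2 ratio of -9.63 was -1.24. *Serping1*, the most abundant by counts, was 1196 and 2393 CPM, and its log2 ratio was -3.36 without the OPr cells of M1.

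**Figure D2:**
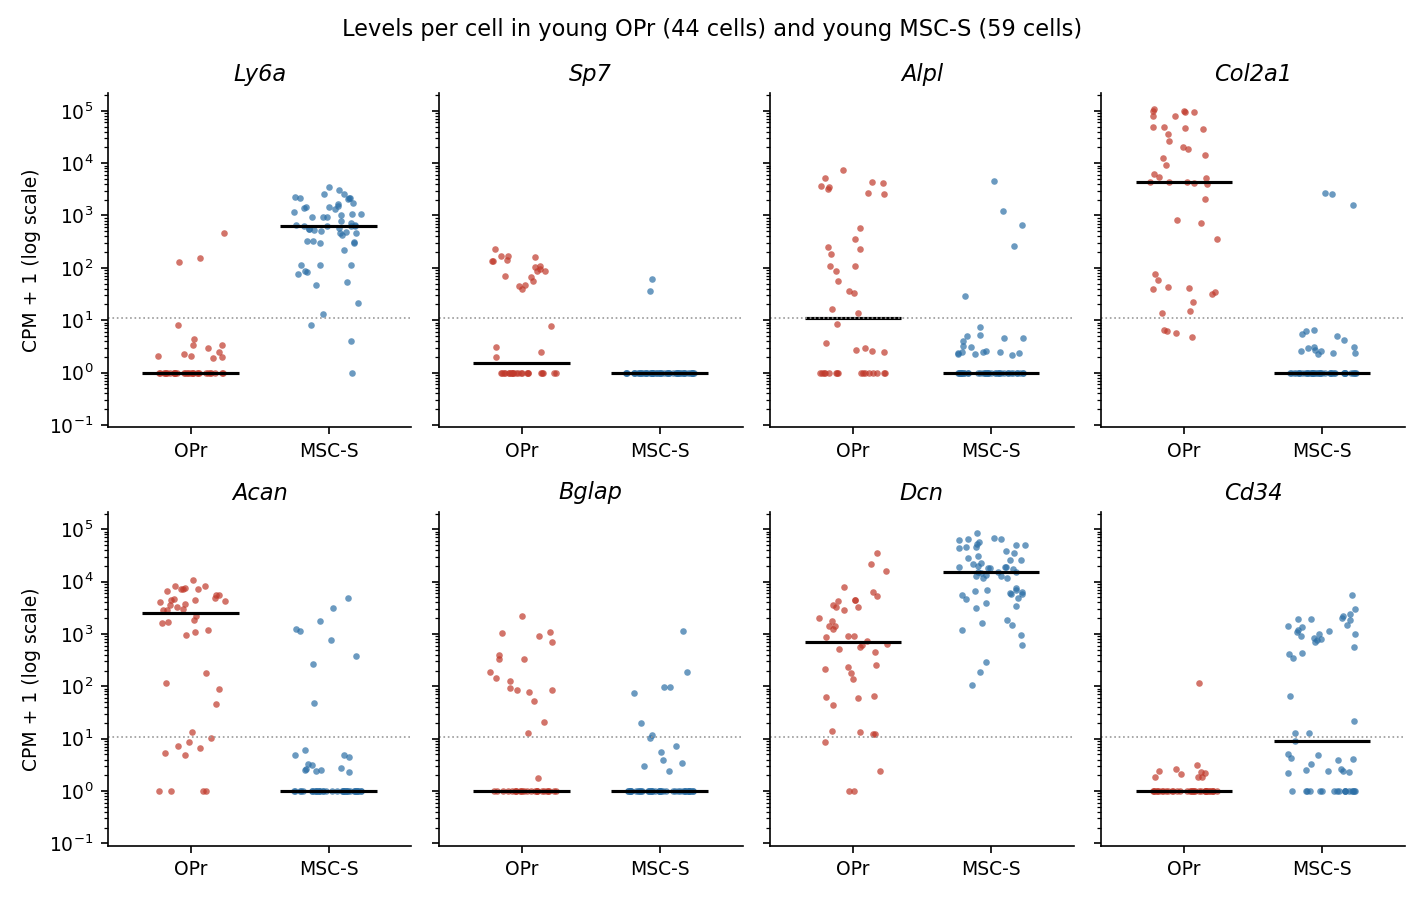
Levels in each young OPr cell (44) and young MSC-S cell (59) as CPM plus 1 on a log axis, with a black line at the median and a dotted line at the 10 CPM at which a cell carries a gene. *Col2a1* and *Acan* lie high in most OPr cells, *Sp7*, *Alpl* and *Bglap* in part of them, and *Ly6a* and *Dcn* in most MSC-S cells.

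Of 15 genes of tendon, ligament and joint lining 14 were measured, with 0 called higher and 4 lower (28.6%, against 8.91% of all measured genes). The median log2 ratio was -0.34 (0.24 and -2.39 within the ranges). Without the top cells the median was -1.89, with 5 called lower. Lubricin, *Prg4*, which coats joint surfaces, was among the 5 most abundant genes by counts in both groups. It lay at 0, 10.9 and 237837 CPM in OPr cells and at 4.10, 1086 and 289738 CPM in MSC-S cells, and 23 of 44 and 57 of 59 cells carried it. Its sums were 12070 and 50938 CPM (-2.08), 44.9% of the OPr counts came from 1 cell, and without the top cells the log2 ratio was -2.75. With median-of-ratios size factors it was -1.78, under 4-fold. The levels of *Prg4* in the 3 MSC-S runs were 25369, 111928 and 13065 CPM, and 1 OPr run reached 24142 CPM, so the runs overlap. *Htra4* (-5.72) and *Tppp3* (-4.04), a gene of tendon and synovial progenitors, were lower, as was *Kera*. The tendon factor *Scx* (0.25) and *Fmod* (0.97), fibromodulin, were not called. *Tnmd*, tenomodulin, was 152 and 164 CPM, but 1 OPr cell held 100.0% of the OPr counts.

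Of 27 genes of the Wnt signalling list 16 were measured, 3 called higher and 3 lower, with a median log2 ratio of -0.31. The share called was 37.5%, against 8.91% of all measured genes. The ligand gene *Wnt4* was 121 CPM against 1.62 CPM (5.54) and was carried by 18 of 44 OPr and 2 of 59 MSC-S cells. The secreted inhibitors split, with *Wif1* (2.57) and *Sfrp5* (5.46) higher and *Sfrp4* (-2.83), *Sfrp2* (-2.34) and *Dkk2* (-5.62) lower. *Wif1* was 1101 CPM against 184 CPM, carried by 22 of 44 and 7 of 59 cells. *Sfrp5* and *Sfrp2* rested on few cells, as 72.3% of the OPr counts of the former and 92.2% of the MSC-S counts of the latter came from 1 cell. Without the top cells these ratios were 3.80 and -3.01. The coreceptor gene *Lrp5* (1.86) was not called.

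Of 38 genes of BMP and TGF-beta signalling 30 were measured, 4 called higher and 2 lower, with a median of 0.20. The ligand gene *Bmp7* was 52.9 CPM against 1.04 CPM (4.72), carried by 16 of 44 and 2 of 59 cells. The antagonists *Grem1* (5.76) and *Chrdl1* (2.56) and the ligand *Gdf6* (7.08) were higher too. *Chrdl1* was under 4-fold without the OPr cells of M1 (1.46), and with cells whose cluster has the identity of their sort (1.83). *Gdf6* was carried by 4 OPr cells, of which 1 held 69.4% of the counts, and its ratio was 5.47 without the top cells and 1.79, under 4-fold, by cluster identity. With cells of clusters M3 to M5 against M6 to M16 whatever the sort, the ratio of *Gdf6* turned to -4.98. The top cell held 60.6% of the OPr counts of *Grem1*, whose ratio was 4.99 without the top cells and 2.80 without the OPr cells of M1. *Bmp4* was lower (-2.03), as was *Ltbp4* (-4.61), which binds latent TGF-beta and was carried by 49 of 59 MSC-S and 6 of 44 OPr cells. *Id3*, a target of BMP signals, was alike at 829 and 743 CPM.

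Of 20 genes of FGF and parathyroid hormone signalling, 13 were measured, with a median of 0.63. Of the 13, 1 was called lower and 4 higher (38.5% in all, against 8.91% of all measured genes). Beside *Fgfr3* and *Pth1r* these were the decoy receptor gene *Fgfrl1* (2.66) and *Etv5* (2.32), a target of FGF signals that fell to 1.79 without the top cells. *Fgfr3* lay at 0, 340 and 1586 CPM in OPr cells and was carried by 30 of 44 of them and by 6 of 59 MSC-S cells. *Pthlh*, a ligand of PTH1R, was lower (-2.01, 3 of 44 against 15 of 59 cells), close to the threshold and under it with thinned cells (-1.99). *Fgfr1* (0.30) and *Fgfr2* (1.79) were not called. Of 16 genes of the IGF system 10 were measured, 2 called higher and 2 lower (40.0% in all), with a median of 0.13. The protease gene *Pappa* (4.05), which cleaves IGF-binding proteins, and its inhibitor *Stc2* were higher. *Stc2* was 34.2 CPM with 0 counts in MSC-S, at least 394-fold higher, and 13 of 44 OPr cells carried it. With median-of-ratios size factors *Pappa* was under 4-fold (1.88). The binding protein genes *Igfbp5* (-2.09) and *Igfbp6* were lower. *Igfbp7* was alike at 1193 and 1204 CPM. Of 14 Hedgehog genes 8 were measured and 0 called, which is near the share over all genes, with a median of 0.14. Among them the receptor and target *Ptch1* was 197 and 58.2 CPM (1.74) and the coreceptor *Gas1* 306 and 837 CPM (-1.45). The target *Gli1* was too low to be measured, at 16.7 and 11.2 CPM.

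Collagen genes took more of the counts in OPr, 49108 CPM in sum against 15667 CPM, of which *Col2a1* made 23589 CPM. Of 44 genes 28 were measured, with a median log2 ratio of 0.51. Of the 28, 8 were called higher and 4 lower (42.9% in all, against 8.91% of all measured genes). The 8 were those of collagens II, IX, X, XI and XXVII, among them *Col27a1* (4.10), which was carried by 33 of 44 OPr and 12 of 59 MSC-S cells. The 4 were *Col14a1*, *Col22a1* (-3.85, and -1.78 with median-of-ratios size factors), *Col18a1* (-2.89) and *Col5a3* (-2.09). *Col3a1* was carried by 12 of 44 OPr and 57 of 59 MSC-S cells but was not called by its sum (-1.77), and 1 cell held 54.4% of the OPr counts. Without the top cells its log2 ratio was -2.71. Of 28 genes that process and secrete collagen 27 were measured, with *Loxl4* (2.07), a crosslinking oxidase, called higher, 0 called lower and a median of 0.16. The share called was 3.70%. *Plod2* (1.65), a lysyl hydroxylase, and *P4hb* (0.46), a subunit of prolyl hydroxylase, were not called.

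Of 14 small leucine-rich proteoglycans 13 were measured, with *Epyc* and *Omd* called higher, *Dcn* and *Kera* lower, and a median of -0.54. The share called was 30.8%, against 8.91% of all measured genes. *Bgn*, biglycan, was alike at 4118 and 3532 CPM. Of 24 matrix proteases and inhibitors 20 were measured, 1 called higher and 3 lower, with a median of -0.72. *Adamts9* was higher (3.78). The aggrecan-cleaving protease *Adamts5* (-2.31) was carried by 9 of 44 OPr and 47 of 59 MSC-S cells. *Htra1* (-2.35) and the inhibitor *Timp2* (545 CPM against 2187 CPM) were lower too, and *Timp2* went under 4-fold without the OPr cells of cluster M1 (-1.89). Of 25 integrin genes 13 were measured, 3 called higher and 0 lower (23.1% in all), with a median of -0.80. *Itga10*, a receptor for type II collagen, was carried by 32 of 44 OPr and 12 of 59 MSC-S cells (2.70), and *Itga1* (2.20), another collagen receptor, and *Itgb4* (2.25) were the others. Without the OPr cells of M1 these 2 were under 4-fold (1.55 and 1.52), and *Itga1* was so with thinned cells (1.57). Of 16 Ly6 family genes 3 were measured, and beside *Ly6a* and *Ly6c1*, which were lower, *Ly6e* was 143 and 198 CPM (-0.47). The median of the 3 was -5.54, which is the value of the gate gene *Ly6a*, and -0.19 with no filter on low genes.

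Genes of MSC-L, the LepR-positive stroma of the marrow, and of adipogenic cells were high in 3 OPr cells. The authors sorted cells into clusters by their transcriptomes, and 3 young OPr fell into cluster M1, all in the lower range of library numbers. These cells held 99.3% of the OPr counts of the chemokine gene *Cxcl12*, at 35272, 44061 and 53437 CPM, against 34.8 CPM summed over the other 41 OPr cells. They also held 99.5% of *Kitl*, 99.6% of *Adipoq*, 74.8% of *Lepr* and 80.3% of *Pdgfra*. Clusters were made from these same cells, so such shares describe them and test nothing. Of the 20 genes on the list 15 were measured and *Esm1* alone was called higher (7.65), with 0 lower. That is 6.67%, against 8.91% of all measured genes. The median log2 ratio of the list was 1.82, with 3.11 in the lower range and -1.79 in the upper. Without the 3 cells of M1, an alternative chosen after seeing the data, the median was -1.57 and *Esm1* was 0.36. *Hp* (5.82), *Cxcl12* (3.93), *Vcam1* (2.57), *Ebf3* (2.63) and *Lpl* (1.82) each turned sign between the ranges and were not called. *Lepr* also turned, from 3.07 in the lower range to -0.60 in the upper. The factor gene *Foxc1* (1.56) had the same sign in both, with 34 of 44 OPr and 31 of 59 MSC-S cells carrying it, and *Ebf1* was -1.33. Of 21 genes for blood-supporting and osteoclast-regulating factors 15 were measured, 0 called higher and 3 lower, *Il6*, *Bmp4* and the semaphorin *Sema3a* (-2.88). Their median was 0.28, with 0.97 and -2.51 within the ranges, and -2.73 without the cells of M1, with 8 then called lower. *Csf1*, the macrophage growth factor, was carried by 10 of 44 OPr and 46 of 59 MSC-S cells (-1.81).

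Lists of ribosomal protein, energy metabolism, immediate early, Hox and cell cycle genes held few called genes. Over all measured genes 8.91% were called, so in the smaller lists 0 called is near that share. Of 88 cytosolic ribosomal protein genes 53 were measured, with *Rpl22l1* called higher (2.11), 0 lower and a median of 0.07. *Rpl22l1* was under 4-fold with the mean over cells of CPM (1.74), median-of-ratios size factors and thinned cells (1.93). Of 76 oxidative phosphorylation genes 59 were measured and 0 called, with a median of -0.30, and of 20 glycolysis genes 16 were measured and 0 called, with a median of 0.43. The 18 immediate early genes measured, of 19, had a median of 0.03, and *Fos* was 8620 and 9126 CPM. Of 39 Hox genes 2 were measured and 0 called, with a median of -0.40, and *Hoxa10* was 43.6 and 51.8 CPM. Of 28 cell cycle genes 7 were measured and 0 called. Their median was -2.12 but 1.42 in the lower range. For the proliferation marker *Mki67*, 1 cell held 95.6% of the OPr counts and 1 cell 85.9% of the MSC-S counts. The most abundant gene by counts in both groups was *Rn18s-rs5*, a ribosomal RNA entry, at 90219 and 60828 CPM. *Gm26917* (0.97) and *Sparc* were among the 5 most abundant in OPr and *Fn1*, fibronectin (-1.41), in MSC-S.

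Blood, erythroid and muscle markers were too low to be measured, and other lineages had measured markers. Over all measured genes 8.91% were called, and the lists here held few measured genes to set beside that share. None of the 15 hematopoietic markers was measured, their summed level was 6.75 CPM in OPr and 7.47 CPM in MSC-S, and *Lyz2* was the most abundant at 1.23 and 4.11 CPM. Of these 15, 1 had 0 counts in OPr and 7 in MSC-S. The 8 erythroid markers summed to 5.52 and 0.955 CPM, most of it *Alas2* in OPr (5.49 CPM), and 6 of them had 0 counts in OPr and 3 in MSC-S. The 9 skeletal muscle markers summed to 18.5 and 10.5 CPM, led by *Myod1* (9.61 CPM in OPr) and *Des* (6.68 CPM in MSC-S). Of 15 endothelial markers 3 were measured and 2 called lower, *Tek* (-5.24) and *Ramp2* (-3.77), with a median of -3.77 that was -0.10 with no filter on low genes. Their sums were 70.9 and 302 CPM, with *Eng* the most abundant in OPr (13 of 44 cells) and *Ramp2* in MSC-S (180 CPM, 41 of 59 cells). Of 12 mural cell markers 4 were measured, with *Notch3* called higher (4.05), *Rgs5* lower (-4.07) and a median of 0.49. *Notch3* was 0.65 without the OPr cells of M1. *Rgs5* was under 4-fold in the lower range (-0.43) and with clusters M3 to M5 against M6 to M16 whatever the sort (-1.41). Mural sums were 810 and 448 CPM, most of it *Cspg4* (685 and 272 CPM, 1.33). Of 8 Schwann cell markers 4 were measured and *Cdh19* called higher (2.44), with a median of 3.68, -0.05 in the lower range and 6.09 in the upper. The sums were 687 and 79.8 CPM, and the top OPr cell held 90.8% of the counts of *Mbp*. Of 9 osteoclast markers 3 were measured and 0 called, with a median of -0.57 and sums of 770 and 850 CPM, led by *Ctsk* (390 and 580 CPM). The part of these markers in the other results was not tested.

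**Figure D3:**
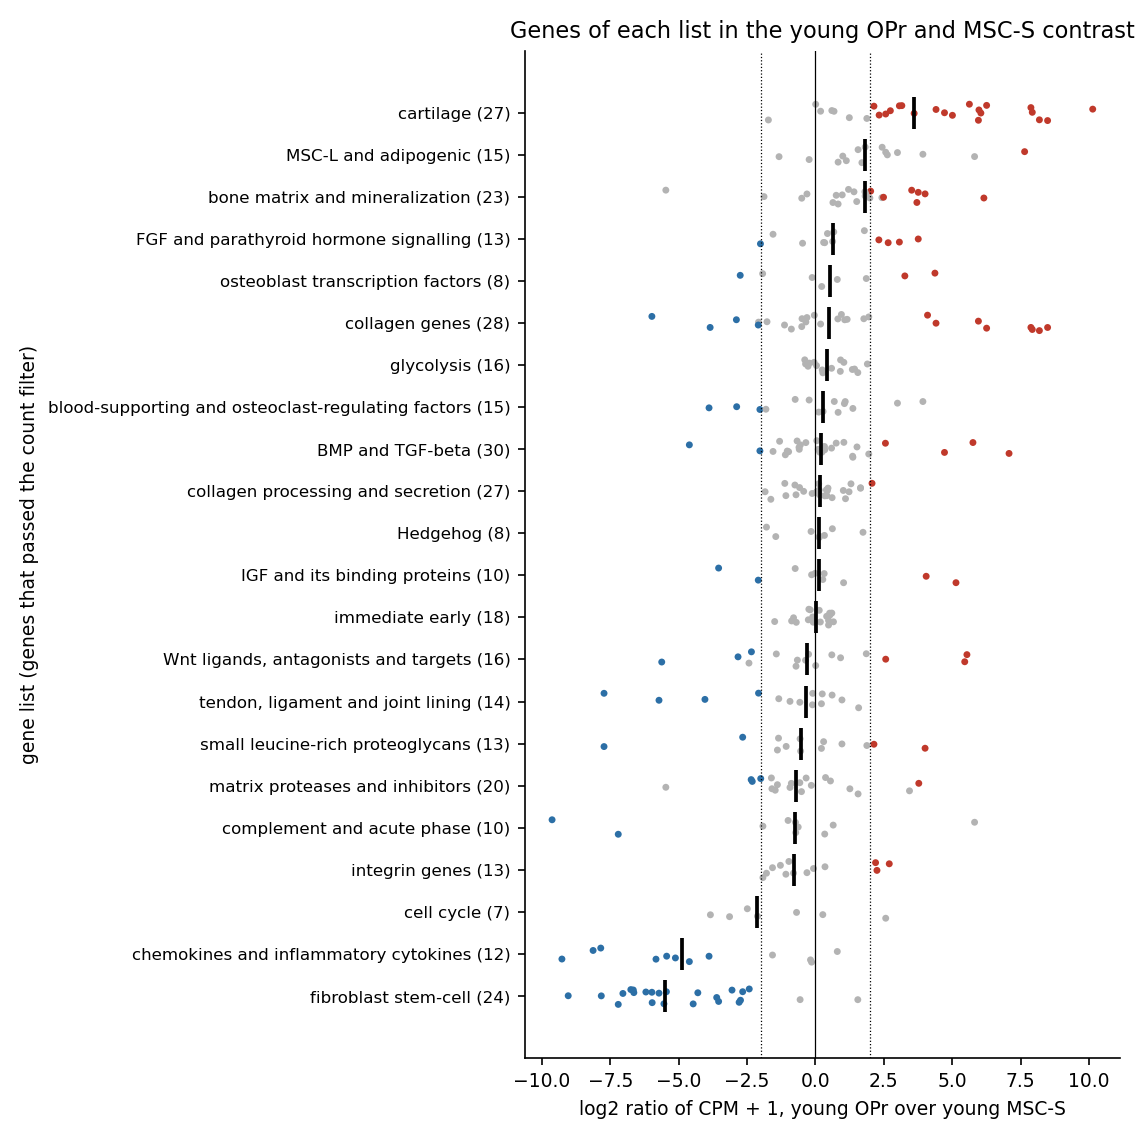
Log2 ratio of CPM plus 1, young OPr over young MSC-S, for each measured gene of a list, with the number measured in brackets, a black line at the median and dotted lines at 4-fold. Cartilage genes (median 3.61) lie to the right and fibroblast progenitor genes (median -5.49) to the left. The chemokines measured have a median of -4.87, which was -0.58 with no filter on low genes.

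The OPr cells varied among themselves. By the clusters of the authors, 15 of 44 were in M3 (34.1%), 14 in M5, 7 in M4, 5 in M15 and 3 in M1, while MSC-S spread over 9 clusters led by M16 (14 of 59) and M12 (13 of 59). Both groups had cells in M4, M5 and M15. In M3 every one of 15 cells carried *Col2a1*, *Acan* and *Runx2*, 13 carried *Sp7*, 14 *Alpl* and 13 *Bglap*. These 15 cells held 90.6% of the *Col2a1* counts of OPr, 63.6% of *Sp7*, 78.8% of *Alpl* and 98.9% of *Smpd3*. All but 1 of them carried *Alpl* beside *Col2a1*, so these 2 genes lay in the same cells. *Col1a1* was carried by 1 of the 15 cells of M3, at 7.50 CPM in sum. *Sox9* was carried by all 15 (2101 CPM) and *Col10a1* by 5 (536 CPM). In M4 each of 7 cells carried *Col2a1* and *Acan* and 0 carried *Sp7*, *Alpl* or *Bglap*, and their summed level of *Wif1* was 4712 CPM, against 1101 CPM in all OPr. In M5, 13 of 14 cells carried *Col2a1*, with a median of 40.9 CPM, 6 carried *Alpl*, 2 *Sp7* and 9 *Col1a1*, and they held 81.9% of the *Col1a1* counts. In M15 all 5 cells carried *Acan* and 1 carried *Sp7*, and the 5 held 45.7% of *Prg4*. Without the OPr cells of M3 and M4, which leaves 22, the cartilage median was 1.27 with 11 genes called higher and 2 lower. *Smpd3* was then 0.23, *Sox9* 0.52, *Wif1* 0.97, *Loxl4* 0.14, *Stc2* 0.20, *Fgfrl1* 0.34, *Papss2* 0.02, *Col27a1* 0.90 and *Mia* 0.78, and *Lect1* (-0.34), *Ppa1* (-0.76) and *Epyc* (-5.66) had turned, while *Sp7* (3.99), *Alpl* (2.37) and *Runx2* (3.59) were still 4-fold higher. The 3 cells of M1 are among these 22 and held 14.4% of the *Sp7* and 27.1% of the *Runx2* counts of all OPr. Without them as well, an alternative chosen after seeing the data, *Sp7* was 3.63, *Alpl* 2.60 and *Runx2* 3.05 in 19 cells. These ratios rested on few cells. *Sp7* was carried by 2 cells of M5 and 1 of M15, *Alpl* by 6 and 0, and *Runx2* by 6 and 2. The 2 highest of these cells had *Alpl* at 4128 and 3609 CPM. Without the OPr of M3 and M4 alone, 219 of the 355 genes higher in OPr were still 4-fold higher and 41 had turned.

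Counted over all OPr cells, 22 of 44 (50%, interval 34.6% to 65.4%) carried *Col2a1* with *Sp7* or *Alpl*, and 18 (40.9%) carried *Col2a1* with neither. At 100 CPM these were 13 (29.5%) and 17 (38.6%) of 44. Of the 24 that carried *Sp7* or *Alpl*, 2 did so without *Col2a1*, and at 100 CPM 13 of 18 had *Col2a1* as well. *Sp7*, *Alpl* and *Bglap* were carried together by 13 (29.5%), and *Sp7*, *Alpl*, *Col2a1* and *Acan* by 12 (27.3%), against 1 and 0 of 59 MSC-S cells. None of *Sp7*, *Alpl*, *Bglap*, *Col2a1* and *Acan* was carried by 1 OPr cell and by 43 of 59 MSC-S cells (72.9%). The 3 OPr cells that carried *Ly6a* all carried *Col2a1*, and the highest of them had 471 CPM, within the range of MSC-S cells. Among MSC-S, 5 cells carried *Ly6a* with *Sp7* or *Alpl*.

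The same contrast in old mice, 29 OPr against 59 MSC-S from other animals, shared directions with the young. There 7870 genes were measured, 652 called higher (8.28%) and 509 lower (6.47%). Of the 355 genes higher in young OPr 207 were measured in the old, 185 had the same sign (89.4%, against 56.2% of all measured genes with a positive ratio) and 96 were called (46.4%, 14.7% of the old calls). Of the 347 lower genes 316 were measured, 259 had the same sign (82%, against 43.8% with a negative ratio) and 150 were called (47.5%, 29.5% of the old calls). *Sp7* was 49.2 CPM against 0.510 CPM in the old and *Runx2* 313 CPM against 27.2 CPM, and both were called. *Ly6a* (-8.65), *Tnxb* (-7.43), *Mfap5* (-8.23) and *Prg4* (-12.42) were lower again. *Col2a1* was 509 CPM in old OPr (log2 ratio 4.60) and *Acan* 255 CPM against 10.4 CPM (4.49), and neither was called, since their direction differed between the ranges of library numbers in the old. *Matn3* was 10.7 CPM in old OPr, against 1130 CPM in young OPr. In *Cxcl12* the old ratio was 4.54 and called. Of the 29 old OPr 10 were in M1 or M2 and held 99.9% of these counts, and with cells whose cluster has the identity of their sort the old ratio was -4.34. Old OPr included 8 of 29 cells with 7 or more hematopoietic markers, against 0 in either young group, where the most in a cell was 3 in OPr and 1 in MSC-S. Without those cells 88 of 192 measured higher genes and 152 of 312 lower genes were called in the old. Whether the young and old contrasts differ was not tested.

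Side by side with other young stroma, the leading cartilage genes were at their highest in OPr. In 26 multipotent osteoprogenitors (mOPr, PDGFRα positive and LepR negative, from the same endosteum) *Col2a1* was 1142 CPM, *Acan* 402 CPM and *Matn3* 0.274 CPM. In 53 MSC-L of the marrow they were 25.7, 2.59 and 0.702 CPM. *Sp7* was 28.2 CPM in mOPr and 65.2 CPM in MSC-L, beside 49.1 CPM in OPr, so its level did not set OPr apart from MSC-L. *Runx2* was likewise 118 and 439 CPM, beside 202 CPM. *Alpl* was 458 and 152 CPM, beside 876 CPM, and *Bglap* 666 and 2.37 CPM, beside 143 CPM. Of the genes lower in OPr, *Dcn* was 20605 CPM and *Tnxb* 957 CPM in mOPr, near the MSC-S levels of 21974 and 1461 CPM, while *Ly6a* was 2.19 CPM. In MSC-L *Dcn* was 675 CPM and *Tnxb* 0.658 CPM. The differences among these groups were not tested.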

How the data were processed

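Single sorted cells were profiled by plate-based RNA sequencing. Reads were aligned by the authors to GRCm38.p4 (GSNAP) and assigned to genes by HTSeq with no regard to strand, so overlapping genes can mix. The deposited values are counts per gene and cell with no normalization. The table held 46078 gene entries. The 270 that repeated a symbol were summed with it, which left 45771 nuclear and 37 mitochondrial genes. Groups followed the sort in the labels of 44 young OPr and 59 young MSC-S cells, and clusters those of the authors. CPM were computed from counts of nuclear genes summed over cells, and log2 ratios with a pseudocount of 1 CPM.

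Measured genes had at least 1000 counts over both groups in at least 10 cells, and a call needed a 4-fold ratio in the same direction in both ranges of library numbers. Intervals were exact Poisson intervals for levels, conditional binomial ones for ratios and Clopper-Pearson ones for shares of cells, all at 95%. PCR reads without molecular identifiers are not independent molecules, so these cover counting error alone. A group with 0 counts was given 3 counts over the group, and the ratio is then a bound. No p-value was computed, since mice are not named and each group is 1 sample.

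Genes named were *Ly6a*, *Sp7*, *Alpl* and the genes of the sorted surface proteins. To these came the 15 largest and 15 smallest ratios among called genes that at least 50% of cells of the higher group carried and that had at least 50 CPM there in both ranges. Members of the gene lists and the 5 most abundant genes of each group followed. Members and lists were chosen with earlier results of these data known.

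Alternatives were the mean over cells of CPM, median-of-ratios size factors, cells thinned to 100000 counts (which left out 1 OPr cell), a pseudocount of 0.1 CPM, no filter or a stricter filter on low genes (5000 counts in 20 cells), each range alone, leaving out the top cells, groups by cluster, and 2-fold and 8-fold calls. Leaving out cells with markers of another lineage took out 0 young cells. Those chosen after seeing the data were leaving out the 3 OPr cells of M1, alone or for *Sp7*, *Alpl* and *Runx2* with those of M3 and M4, and 100 CPM as carrying level. Doublets were not called. The steps were tested on simulated counts drawn from 1 mean profile, with 8-fold changes put in and no clusters, runs or mice. That checks the computation alone. Computations ran in Python 3.11.15 with scipy 1.17.1, pandas 2.3.3 and numpy 2.4.6, and figures were drawn with matplotlib 3.10.9.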

Additional observations from a re-analysis of the deposited data

Results flagged for a closer look

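Of the genes called in young OPr against young MSC-S, 9 were called the other way in old OPr against old MSC-S, and these are given as values. They were chosen after their values were seen. Higher in young and lower in old OPr were *Bdkrb1* (log2 ratio 3.14 in the young and -4.70 in the old), *Fam180a* (3.10 and -4.93), *Foxd1* (2.60 and -3.82), *Sqle* (3.07 and -3.15) and *Ttl* (2.10 and -2.48). Lower in young and higher in old OPr were *Bmp4* (-2.03 and 2.04), *Cxcl2* (-5.12 and 3.80), *Dhx37* (-2.34 and 2.04) and *Slc9a3r1* (-2.04 and 2.90). Among the young calls that of *Cxcl2* alone was 4-fold in every setting. *Bdkrb1* was 1.92 with the mean over cells of CPM and 1.01 with median-of-ratios size factors, *Ttl* 1.70 and 1.87, and *Slc9a3r1* -1.81 and -1.73. *Foxd1* was 1.91 with the mean and also under 4-fold with the size factors. The difference between the young and the old contrast was not tested, and each contrast is 1 sample against 1. Without the 8 old OPr cells with 7 or more hematopoietic markers the old ratio of *Cxcl2* was -4.96, of *Slc9a3r1* 0.57 of *Dhx37* 1.89 and of *Bmp4* 2.45. With cells whose cluster has the identity of their sort it was -0.11 for *Bmp4*, 4.60 for *Cxcl2* and 3.54 for *Slc9a3r1*, and *Dhx37* was under 4-fold. Single cells held much of the counts in several, with 65.7% of the *Bdkrb1* and 66.3% of the *Fam180a* counts of old MSC-S in 1 cell and 58.1% of the *Dhx37* counts of old OPr.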

How the results depend on the processing

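No paired analysis was possible because the labels do not name the mouse of a cell. Library numbers in the labels gave the ranges and runs, and no result comes from a test. Against 355 genes higher in OPr there were 978 with no filter on low genes, 98 with a stricter filter, 726 in the lower range alone, 948 at 2-fold and 169 at 8-fold. Against 347 lower there were 783, 119, 725, 1094 and 145, and 607 in the upper range alone, 576 with cells whose cluster has the identity of their sort and 565 without OPr of M3 and M4. In the upper range, by cluster identity and without OPr of M3 and M4, 410, 379 and 316 genes were higher, fewer than were lower. The filters and folds change these counts by construction. For the others the cause was not tested.

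Among lists with a median of at least 1 in either direction (log2), medians turned for osteocyte genes with no filter (0.05), MSC-L and adipogenic genes in the upper range (-1.79), by cluster identity (-0.93) and without the OPr of M1 (-1.57), cell cycle genes in the lower range (1.42) and Schwann markers there (-0.05). With cells of M3 to M5 against M6 to M16 whatever the sort, the log2 ratio turned for *Cfd* (8.95), *Col18a1* (1.05), *Ccl11* (0.29), *Esm1* (-1.32), *Gdf6* (-4.98), *Foxd1* (-0.34) and *Ptprz1* (-0.03). It turned without OPr of M3 and M4 for *Epyc* (-5.66), *Bdkrb1* (-1.05), *Lect1* (-0.34) and *Ppa1* (-0.76), and with median-of-ratios size factors for *Mgp* (-0.42). The cause was not tested. OPr carrying *Col2a1* with *Sp7* or *Alpl* were 70.5% at 1 count or more and 29.5% at 100 CPM, against 22 of 44 cells at 10 CPM. At 1 count or more 14 of 44 OPr cells had *Ly6a*, against 3 at 10 CPM. At 100 CPM 9 of 44 had *Sp7* and 11 *Bglap*, against 18 each. With cluster identities 47 of 140 measured higher genes were called in the old (33.6%), against 96 of 207 (46.4%). For the lower genes 178 of 296 were called (60.1%), against 150 of 316 (47.5%).

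Of 122 called genes named, 110 kept their sign in all 13 settings and 57 were still 4-fold apart in all. Leaving out cells with markers of another lineage took out no young cell and is not counted, and filters leave the ratio of a gene as it was. Of the 122, 9 went under 4-fold with the mean over cells of CPM, 11 with median-of-ratios size factors, 8 with thinned cells, 17 in the lower range alone, 13 in the upper alone, 5 without the top cells, 10 by cluster identity, 36 with clusters whatever the sort, 31 without OPr of M3 and M4 and 9 without those of M1. Of 384 list medians under these settings 308 stayed within 1.5-fold, 70 moved further and 6 were the turns above. Among the 258 values of lists with a median under 1 in either direction, 48 had the other sign. Blood-supporting factors went from 0.28 to -2.51 in the upper range, -2.78 by cluster identity and -2.73 without the OPr of M1. Mural markers went from 0.49 to -0.84 without the top cells. The median of all genes was -0.18 with the mean over cells of CPM and -0.15 with thinned cells. Depth limits genes under 1000 counts, which were not called either way.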
